A study of Mus musculus with 15 samples.

Results

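Wild-type erythro-myeloid progenitors (EMPs) of the mouse yolk sac (YS) at E10.5 were profiled by RNA-seq in 5 of the 15 libraries of the series. The members are the libraries whose titles read Tie2-Ezh2-WT, with 3 replicates, or Vav-Ezh2-WT, with 2 replicates. No knockout library entered any value given here. The description covers their most abundant genes, transcription factors, surface receptors, lineage programmes, genes without reads and the spread between libraries.

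EMPs arise in the YS from hemogenic endothelium, specialised endothelial cells that round up and take on a blood identity in the endothelial-to-hematopoietic transition. They form a definitive wave of blood production that precedes hematopoietic stem cells, and they give rise to red cells, megakaryocytes, granulocytes, mast cells and macrophages. Lineage factors that oppose each other in mature cells, such as the erythroid and megakaryocyte factor GATA1 and the myeloid factor PU.1, are known to be present together in such progenitors.

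The study asked what loss of the H3K27 methyltransferase Ezh2 does to EMPs when it is deleted at the endothelial stage with *Tie2*-Cre or at the onset of the hematopoietic stage with *Vav*-iCre. Both control groups carry floxed *Ezh2* on both alleles (Ezh2fl/fl) on a C57BL/6 or backcrossed strain and lack the Cre, *Tie2*-Cre in Tie2-Ezh2-WT and *Vav*-iCre in Vav-Ezh2-WT, so that they are wild type in function but not free of the floxed allele. Each library was made from cells sorted out of an individual YS as LIN−SCA1−KIT+CD16/32+CD41+, and the study used mice of both sexes. The labels give 500 cells per library and the methods 100, and the 3 independent experiments of the study are not assigned to libraries, so cross and experiment cannot be told apart.

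Levels are given in RPKM, the reads of a gene scaled for the length of its transcript and for the reads of its library, so that genes can be compared with each other. Where 5 values are listed, they are those of Tie2-Ezh2-WT replicates 4, 10 and 12 and then of Vav-Ezh2-WT replicates 4 and 6, in that order. In these libraries 10407398, 15811738, 41025074, 14890780 and 19957939 reads fell on genes, so Tie2-Ezh2-WT replicate 12 was the deepest and Tie2-Ezh2-WT replicate 4 the shallowest. Across all 102092929 reads, 3 reads on a transcript of 2 kb correspond to 0.0147 RPKM, and in the shallowest library alone to 0.144 RPKM, limits that cover counting error only. An exact 0 is described as listed at 0, because *Ndufs5*, a subunit of respiratory complex I that every cell uses, and *Rmrp*, the RNA of a ribonuclease complex, were also listed at 0 in all 5 libraries.

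The libraries did not share all features, and 3 differences are given before the results. Several genes of the visceral endoderm were high in Tie2-Ezh2-WT replicate 4 alone. This epithelium covers the YS on its outer side and makes serum proteins. *Afp*, which encodes alpha-fetoprotein, stood at 48.2, 1.33, 0.502, 0.934 and 1.78 RPKM, and *Apoa1*, which encodes an apolipoprotein, at 47.6, 1.28, 0.668, 1.36 and 2.09 RPKM. The 14 listed visceral endoderm genes summed to 235 RPKM in Tie2-Ezh2-WT replicate 4 and to 25.3, 28.1, 22.6 and 30.0 RPKM in the other libraries. *Trf*, the gene of transferrin, was the most abundant and was not confined to that replicate. Its mean was 24.7 RPKM, and 18.7 RPKM without Tie2-Ezh2-WT replicate 4. *Foxa2* and *Alb* were listed at 0 in all 5, and *Hnf4a* reached at most 0.112 RPKM, in Tie2-Ezh2-WT replicate 12. Without Tie2-Ezh2-WT replicate 4 the mean sum was 26.5 RPKM in place of 68.3 RPKM, and the part of such transcripts in the other values of that library was not tested.

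Tie2-Ezh2-WT replicate 12 was lowest for several genes, of which 3 chosen after their values were seen are given here. *Irf8*, a transcription factor of monocyte development, stood at 7.10, 8.64, 1.16, 7.22 and 9.68 RPKM. *Csf1r*, the receptor for macrophage colony-stimulating factor, gave 4.26, 4.77, 0.447, 5.84 and 7.56 RPKM. The inducible heat shock gene *Hspa1b* gave 16.2, 14.9, 1.51, 31.8 and 25.4 RPKM, a value that may share reads with its near-identical neighbour *Hspa1a*. In each case replicate 12 was the lowest of the 5, and among the 6836 genes with a mean above 5 RPKM it lay at least 1.5-fold below all other libraries for 165, against 33, 23, 15 and 19 for Tie2-Ezh2-WT replicates 4 and 10 and Vav-Ezh2-WT replicates 4 and 6. Other genes were highest in it, such as *Fos* at 198 and *Dusp1* at 197 RPKM. This library also had the most reads, and the part of depth was not tested.

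The sexes of the embryos were mixed between the groups. The Y-linked gene *Eif2s3y*, which encodes a subunit of a translation initiation factor, stood at 0, 0, 22.2, 30.9 and 29.0 RPKM, and *Ddx3y*, *Uty* and *Kdm5d* were likewise listed at 0 in Tie2-Ezh2-WT replicates 4 and 10 only. *Xist*, the RNA that silences an X chromosome in female cells, stood at 0.467, 0.593, 0.0218, 0.0187 and 0.00559 RPKM, highest in those same replicates. Both Vav-Ezh2-WT libraries therefore had Y-linked reads, while the Tie2-Ezh2-WT libraries were mixed.

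The 6 markers of the population were present in every library, and 4 of them were above 100 RPKM. *Kit*, the stem cell factor receptor used in the sort, stood at 27.9, 29.6, 29.6, 25.1 and 31.0 RPKM, or 28.6 ± 2.24 (SD, n = 5), and lies on chromosome 5 of GRCm38 from 75574987 to 75656722. *Itga2b*, which encodes CD41, the alpha chain of the platelet fibrinogen receptor, gave 28.0, 31.5, 29.5, 41.7 and 24.9 RPKM, and *Fcgr3*, which encodes CD16, an Fc receptor for IgG, gave 102, 135, 152, 128 and 101 RPKM. None of these sort genes set a library or a group apart. *Fcgr2b*, which encodes the CD32 part of the CD16/32 gate, was lower at 9.07 ± 2.42 RPKM (SD, n = 5).

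The 3 transcription factors among the markers were more abundant than *Kit* and *Itga2b*. *Gfi1b*, a repressor needed for red cells and megakaryocytes, stood at 194, 227, 199, 252 and 168 RPKM, with 3675 to 14844 reads per library. *Gata1*, the master regulator of those lineages, gave 158, 168, 176, 186 and 154 RPKM, a spread of only 0.11 (SD of log2(RPKM + 0.2), n = 5). *Sfpi1*, which encodes PU.1, gave 142, 162, 120.3, 159 and 199 RPKM. The erythroid and the myeloid regulator were thus within the same range, and the values of *Gata1* and *Sfpi1* overlapped between libraries. These are means over pooled cells, so the data do not say whether the same cells held both.

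Genes of the antigens excluded by the sort were mostly low. *Emr1*, the gene of the macrophage antigen F4/80, was between 0.113 and 1.11 RPKM. *Ly6a*, which encodes SCA1, was at 0.0959, 0, 0.608, 0.469 and 0.850 RPKM, *Il7r*, the interleukin 7 receptor of lymphoid progenitors, reached at most 0.983 RPKM, and *Ly6c2* was listed at 0 in all 5. *Ptprc*, which encodes the pan-leukocyte antigen CD45, stood at 11.6, 11.2, 6.71, 9.71 and 13.4 RPKM. The lineage antibodies include its B220 isoform only, and a value per gene does not separate isoforms. The labels and the markers of the population therefore went together in all 5 libraries. For every bulk value, fewer cells of a type and less RNA per cell cannot be told apart.

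**Figure D1:**
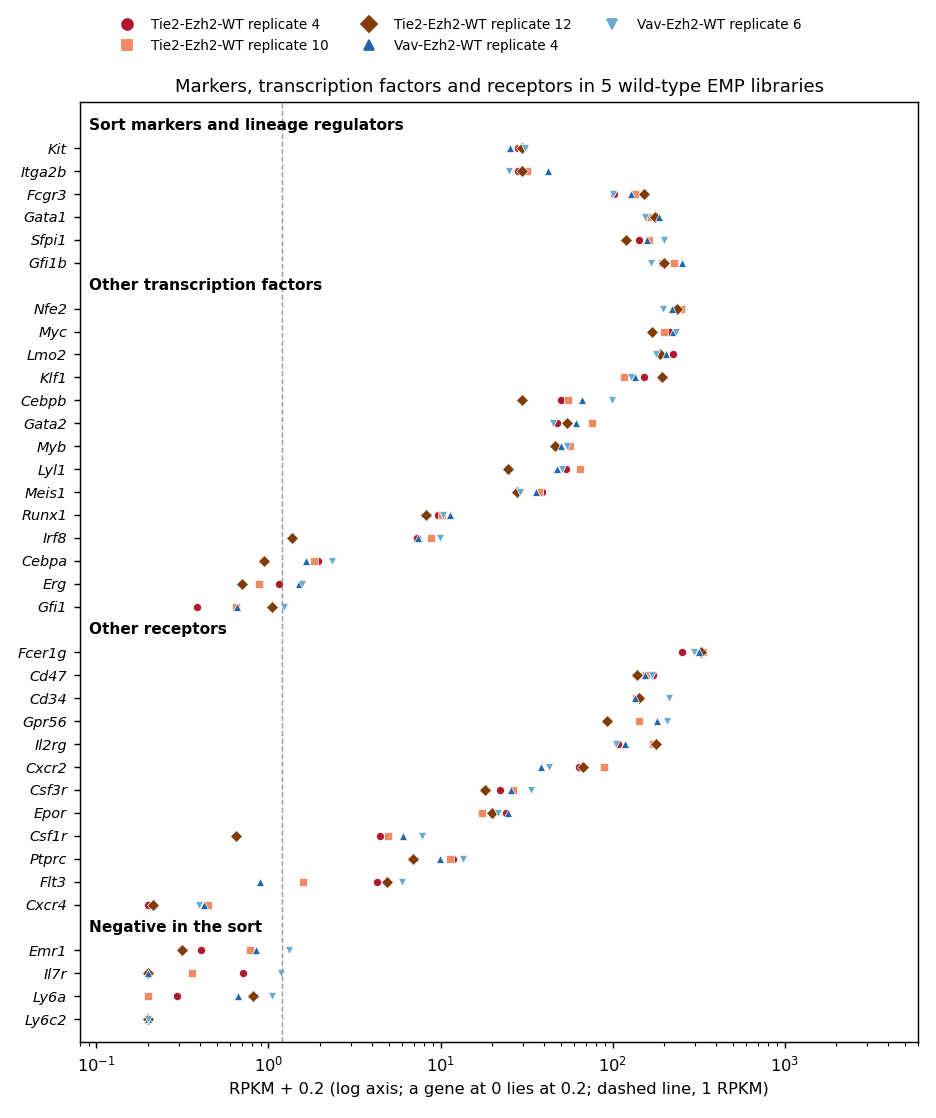
Level of each gene (RPKM + 0.2, log axis) in the 5 wild-type libraries, 1 point per library, with Tie2-Ezh2-WT in red, orange and brown and Vav-Ezh2-WT in blue. *Gfi1b*, *Gata1*, *Sfpi1* and *Fcgr3* lie above 100 RPKM in every library, while *Ly6c2* is listed at 0 in all 5 and Tie2-Ezh2-WT replicate 12 is lowest for *Irf8* and *Csf1r*.

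Of the 17454 genes in the table, 9686 ± 138 (SD, n = 5) were above 1 RPKM and 11709 ± 129 above 0.2 RPKM in a library. Above 1 RPKM in every library were 8872 genes, or 50.8%, and 4957 were above 10 RPKM in every library. The counts per library above 1 RPKM were 9747, 9726, 9446, 9716 and 9797, lowest in the deepest library. With every library thinned to the reads of the shallowest, the mean became 9681, so depth moved this count little. The 1290 genes with a mean above 100 RPKM held 70.7% of the summed level, and the 100 most abundant genes held 22.6% ± 0.573 (SD, n = 5) of it, or 16.3% of the reads.

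Housekeeping genes of protein folding, iron storage, chromatin, translation and glycolysis led the ranking. *Ppia*, which encodes the proline isomerase cyclophilin A, was the most abundant gene at 4274, 4462, 5299, 5548 and 5263 RPKM, followed by the constitutive heat shock chaperone gene *Hspa8* at 4050.0 ± 409.7 RPKM (SD, n = 5) and by *Ftl1*, the light chain of ferritin, at 3623 RPKM. Then came the histone variant *H2afz* at 3267 RPKM, the nucleosome-binding *Hmgn2* at 2893 RPKM, the translation factor *Eif5a* at 2769.6 RPKM, lactate dehydrogenase *Ldha* at 2621 RPKM and the mitochondrial ADP/ATP carrier *Slc25a5* at 2565 RPKM. Further members of the top 20 were *Pfn1*, *Gapdh*, *Gpx1*, *Mif*, *Cnbp*, *Tmsb4x*, *Rplp0*, *Npm1*, *Rpl13* and *Erh*, with means between 1549 RPKM for *Erh* and 2536 RPKM for *Pfn1*. They include the actin-binding genes *Pfn1* and *Tmsb4x*, the peroxide-reducing *Gpx1* and the nucleolar *Npm1*. *Mpo*, the myeloperoxidase of neutrophil granules, was the most abundant gene of all lineage lists, at rank 21.

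Gene groups of growth and metabolism were high as a whole. The 82 ribosomal protein genes had a median of 572 RPKM, against 1.85 RPKM over all 17454 genes, and held 9.09% of the summed level. Exceptions such as *Rps27* at 11.5 RPKM, a gene with near-identical copies, cannot be read as low, because reads that matched several places were kept at 1 of them. The 82 oxidative phosphorylation genes had a median of 281 RPKM, led by the ATP synthase subunit *Atp5b* at 1319.6 RPKM, and the 39 proteasome genes a median of 308 RPKM, with 38 above 1 RPKM. Of the 18 glycolysis genes 17 were above 1 RPKM, and after *Ldha* came *Gapdh* at 1672, 1963, 1621, 2465 and 2598 RPKM, the latter with both Vav-Ezh2-WT libraries above the Tie2-Ezh2-WT libraries. The glucose transporter gene *Slc2a1* stood at 51.6 ± 2.23 RPKM (SD, n = 5), and hexokinase was mostly *Hk1* at 21.5 RPKM rather than *Hk2* at 5.65 RPKM.

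Cell cycle genes were abundant throughout. All 12 listed S phase genes were above 1 RPKM with a median of 179 RPKM, led by *Rrm2*, a subunit of the enzyme that makes deoxyribonucleotides, at 416, 444, 454, 565 and 506 RPKM, and the replication clamp *Pcna* at 389 RPKM. All 10 listed G2/M genes were above 1 RPKM, led by *Ccnb1*, which encodes cyclin B1, at 541, 474, 461, 353 and 357 RPKM. *Ccnb1* was highest in the Tie2-Ezh2-WT libraries and *Rrm2* in the Vav-Ezh2-WT libraries. Both Vav-Ezh2-WT libraries lay below all 3 Tie2-Ezh2-WT libraries for 7 of the 10 G2/M genes, where this held for 9.93% of all 13100 genes tested, and above them for 5 of the 12 S phase genes, where this held for 16.0%. With each library scaled to the same sum these counts were 7 and 6, against 10.18% and 15.34% of all genes tested. With quantile normalization they were 5 and 6, against 12.26% and 14.13%. No gene of either list passed the limma test over all genes (*Ccnb1*, change of -0.47 log2 in Vav-Ezh2-WT, adjusted p = 0.239).

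Among the 7 inhibitors of cyclin-dependent kinases, *Cdkn2d* was the main transcript at 89.1 ± 12.6 RPKM (SD, n = 5), followed by the p53 target *Cdkn1a* at 7.92, 12.7, 7.33, 21.8 and 14.96 RPKM. *Cdkn1b* stood at 1.44, 0.447, 0.0811, 0.168 and 0.125 RPKM, highest in Tie2-Ezh2-WT replicate 4, and *Cdkn2a* and *Cdkn2b*, neighbours in the Ink4 locus, were listed at 0 in all 5 libraries. Of the PRC2 genes, *Ezh2* stood at 36.9, 39.5, 30.1, 42.0 and 41.5 RPKM and its paralog *Ezh1* at 1.60, 2.67, 2.66, 2.43 and 3.38 RPKM. The core subunits *Eed* and *Suz12* stood at 89.0 and 10.6 RPKM. The histone-binding subunit *Rbbp7*, which also serves other complexes, reached 464 RPKM, and *Jarid2*, an accessory subunit, 2.44 RPKM. *Ezh2* was thus the main methyltransferase gene of the complex in each library.

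Transcription factors of the erythroid and megakaryocyte programme dominated the regulators. *Nfe2*, a subunit of a factor that drives globin and platelet genes, stood at 235, 251, 236, 223 and 195 RPKM and was the most abundant of the listed hematopoietic factors. *Lmo2*, the bridging protein of the GATA and SCL complex, gave 225, 186, 187, 204 and 179 RPKM, and *Klf1*, an activator of erythroid genes, 153, 116, 193, 136 and 129 RPKM. All of these were above 100 RPKM in every library. Other members of the complex were lower, with *Gata2* at 56.8 ± 12.6, *Lyl1* at 48.1 ± 14.8, *Zfpm1*, the GATA1 cofactor, at 28.9 ± 8.08 and *Tal1*, which encodes SCL, at 15.03 ± 3.73 RPKM (SD, n = 5 each). Of the 12 listed genes of this complex 11 were above 1 RPKM, and *Gata3*, a factor of T cells, was at 0.395 RPKM. *Lyl1* was lowest in Tie2-Ezh2-WT replicate 12, at 24.4 RPKM against 47.1 to 64.8 RPKM in the others.

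*Runx1*, the factor that starts the endothelial-to-hematopoietic transition, was modest at 9.49, 9.94, 8.04, 11.2 and 10.1 RPKM, all 5 close together. Its partner *Cbfb* stood at 27.4 ± 6.91 RPKM (SD, n = 5), *Runx3* at 1.29 RPKM and *Runx2* at 0.109 RPKM. *Gfi1*, the paralog of *Gfi1b* that also represses endothelial genes, was at 0.186, 0.448, 0.847, 0.454 and 1.03 RPKM, below *Gfi1b* in every library. Of the ETS factors, *Elf1* at 45.1 and *Fli1* at 25.5 RPKM followed *Sfpi1*. *Erg*, which is shared by endothelium and stem cells, was at 0.962 RPKM, and *Etv2*, the early endothelial factor, at 0.740 RPKM.

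Growth and progenitor factors formed a group of their own. *Myc* stood at 215, 199, 169, 223 and 234 RPKM and *Myb*, needed for definitive but not primitive blood, at 55.5, 56.7, 45.9, 50.1 and 54.0 RPKM. *Meis1* gave 33.7 ± 5.07, *Hhex* 39.4 ± 7.36 and *Ikzf1* 24.4 ± 3.90 RPKM (SD, n = 5 each). Of the 13 genes of the stem cell list, which also holds *Meis1*, 5 were above 1 RPKM. *Hlf* stood at 0.520 RPKM and *Mecom* between 0 and 0.464 RPKM. *Hoxa9* was the only 1 of 23 Hox genes above 1 RPKM, at 2.79, 1.20, 3.81, 0.946 and 2.47 RPKM, and 9 of the 23 were listed at 0 in all 5 libraries.

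Myeloid factors were led by *Cebpb*, an activator of granulocyte and macrophage genes, at 50.1, 55.0, 29.7, 66.4 and 99.7 RPKM, lowest in Tie2-Ezh2-WT replicate 12 and highest in Vav-Ezh2-WT replicate 6. *Cebpa*, which commits cells to granulocytes, stood at only 1.75, 1.63, 0.748, 1.45 and 2.15 RPKM. *Irf8* had a mean of 6.76 RPKM, or 8.16 RPKM without Tie2-Ezh2-WT replicate 12, and *Irf4*, a factor of lymphoid and dendritic cells, was listed at 0 in all 5. Of the 7 lymphoid factors analysed here none was above 1 RPKM, and *Ebf1*, *Lef1* and *Eomes* were listed at 0. Endothelial factors were low as well, with *Sox18* at 1.37, 3.09, 0.783, 2.03 and 4.86 RPKM, and *Sox7* and *Hey2* listed at 0.

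Surface receptors of several lineages were present. *Fcer1g*, the signalling chain shared by Fc receptors, was the most abundant at 254, 336, 326, 317 and 298 RPKM. Next came *Cd47*, the signal that protects cells from being eaten, at 157 ± 13.3, *Cd34*, the sialomucin of progenitors, at 154 ± 33.1, and *Gpr56*, an adhesion receptor of progenitors, at 143 ± 51.7 RPKM (SD, n = 5 each). *Gpr56* stood at 182 and 207 RPKM in the Vav-Ezh2-WT libraries and at 92.6, 143 and 92.5 RPKM in the Tie2-Ezh2-WT libraries, without overlap, and did not pass the limma test. *Cd34* was at 213 RPKM in Vav-Ezh2-WT replicate 6 and between 134 and 144 RPKM in the others.

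Among 30 cytokine and growth factor receptors 23 were above 1 RPKM. *Il2rg*, the common gamma chain, led at 136 ± 36.5 RPKM (SD, n = 5), although its lymphoid partner *Il7r* stood at 0.509, 0.158, 0, 0 and 0.983 RPKM and *Il2ra* was above 0 in Tie2-Ezh2-WT replicate 10 alone, at 0.0286 RPKM. *Ifngr1*, a chain of the interferon gamma receptor, stood at 80.4 ± 10.4 RPKM. Receptors of single lineages followed, with *Csf3r* for granulocyte colony-stimulating factor at 25.0 ± 5.74 and *Epor* for erythropoietin at 21.3 ± 3.00 RPKM (SD, n = 5 each). Both stood well below *Il2rg* and *Ifngr1*. *Csf2rb*, the shared chain for GM-CSF, interleukin 3 and interleukin 5, stood at 5.46, 8.67, 1.80, 7.31 and 8.38 RPKM and *Flt3*, a receptor of lymphoid-primed progenitors, at 4.05, 1.38, 4.67, 0.698 and 5.81 RPKM. *Tek*, which encodes TIE2, was at 7.44 ± 1.44 RPKM.

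Of 11 chemokine and other G protein-coupled receptors 7 were above 1 RPKM. The thrombin receptor gene *F2r* stood at 80.4 ± 25.0 RPKM (SD, n = 5), and *Cxcr2*, the receptor for neutrophil-attracting chemokines, at 63.9, 88.5, 67.1, 38.0 and 42.3 RPKM. *Cxcr4*, the homing receptor of stem cells, was at most at 0.244 RPKM. Integrins were led by *Itgb1* at 59.8 ± 4.54 RPKM. Wnt and Notch receptors were scarce, since only *Fzd9*, *Lrp5* and *Lrp6* of 16 were above 1 RPKM, *Fzd9* at 2.46, 2.16, 1.03, 0.987 and 4.20 RPKM, and *Fzd1* and *Fzd2* were listed at 0. *Notch1* and *Notch2* stood at 0.409 and 0.331 RPKM, and none of 12 Wnt ligand genes was above 1 RPKM.

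The erythroid programme was present in its early part. *Car2*, a carbonic anhydrase of red cell progenitors, stood at 429, 355, 433, 383 and 301 RPKM and *Car1* at 12.2, 5.57, 28.6, 29.0 and 18.0 RPKM. All 9 heme synthesis genes were above 1 RPKM, with *Urod* at 102 ± 9.23 and *Fech* at 73.3 ± 15.7 RPKM (SD, n = 5 each). Of the genes for the entry enzyme, the ubiquitous *Alas1* stood at 22.8 ± 6.66 RPKM and the erythroid *Alas2* lower, at 2.09, 1.69, 1.15, 0.645 and 0.608 RPKM. Membrane genes of later red cells were near the floor, with *Ank1* at 0.0617 RPKM, and *Slc4a1*, which encodes band 3, was listed at 0 in all 5.

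Of the 7 globin genes analysed here *Hbb-bh1*, an embryonic beta-like globin, was the only 1 above 10 RPKM, at 137, 123, 139, 60.1 and 112 RPKM. The other embryonic globins *Hbb-y* and *Hba-x* stood at 2.50 and 1.36 RPKM, and the adult beta globins *Hbb-b1* and *Hbb-b2* were listed at 0. The RefSeq table places both outside the globin locus, so their 0 may not be a measurement. The ratio among embryonic globins was therefore uneven, with *Hbb-bh1* above *Hbb-y* in every library. *Hbb-bh1* lies on chromosome 7 of GRCm38 from 103841638 to 103843162, and its lowest value was in Vav-Ezh2-WT replicate 4.

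Megakaryocyte genes were broadly on, with 17 of 19 above 1 RPKM and a median of 16.6 RPKM. *Plek*, a platelet signalling protein, stood at 130.2 ± 27.9 and *Gp9*, a part of the receptor for von Willebrand factor, at 38.9 ± 11.5 RPKM (SD, n = 5 each). *Pf4*, a chemokine of platelet granules, differed most between libraries, at 43.8, 122, 7.71, 166 and 26.8 RPKM. It was highest in Vav-Ezh2-WT replicate 4 and lowest in Tie2-Ezh2-WT replicate 12, so both groups held high and low libraries. The late gene *Vwf* was at 0.254 RPKM and *Gp6* between 0 and 0.834 RPKM.

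Granule genes of neutrophils split into early and late members. *Mpo* stood at 1115, 1506, 1204, 1776 and 1587 RPKM and *Prtn3*, a granule protease, at 192, 233, 178, 331 and 365 RPKM. *Elane*, the gene of neutrophil elastase, was at 15.3 ± 5.28 and *Ms4a3* at 11.4 ± 4.21 RPKM (SD, n = 5 each). *Ctsg*, a granule protease that is often found with them, was at 0, 0.379, 0, 0.201 and 0 RPKM. Genes of later granules were listed at 0 in all 5 libraries, namely *S100a8*, *S100a9*, *Camp* and *Ngp*, and *Ltf* and *Lcn2* reached at most 0.421 and 0.236 RPKM. *Cebpe*, the factor of late granules, was between 0.562 and 2.66 RPKM.

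Other myeloid programmes were carried by few genes. Of 10 mast cell, basophil and eosinophil genes, *Cpa3*, a mast cell protease, stood at 35.2, 82.8, 85.2, 32.9 and 32.0 RPKM and *Hdc*, the enzyme that makes histamine, at 15.5, 55.6, 73.5, 71.5 and 33.3 RPKM, while *Mcpt8*, *Cma1*, *Prg2* and *Epx* were listed at 0. Of 21 monocyte and macrophage genes 8 were above 1 RPKM, with *Lyz2*, a lysozyme, at 75.2 ± 12.8 and *Cd68* at 13.6 ± 3.77 RPKM (SD, n = 5 each). *Csf1r* had a mean of 4.58 RPKM, or 5.61 RPKM without Tie2-Ezh2-WT replicate 12. The macrophage genes *C1qa*, *C1qc* and *Timd4* were listed at 0, and the whole list summed to 138, 119, 85.1, 131 and 121 RPKM, lowest in that replicate. *Lyz2* made up most of each sum.

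Of the lymphoid genes 4 of 17 were above 1 RPKM, of the endothelial genes 11 of 20, a share near that over all genes, and of the mesenchymal genes 1 of 14. *Cd79b*, a chain of the B cell receptor complex, stood at 32.5, 33.7, 33.4, 34.8 and 35.0 RPKM, with an SD of 0.04 log2, while *Rag1* and *Cd79a* were below 1 RPKM in every library and *Cd3g*, *Cd4*, *Dntt* and *Ebf1* were listed at 0. *Egfl7*, a secreted protein of vessels and blood progenitors, stood at 119 ± 12.9 RPKM (SD, n = 5) and *Pecam1*, which encodes CD31, at 18.2 ± 3.13 RPKM, while *Cdh5*, the defining cadherin of endothelium, was at 0.121, 0.349, 0.0550, 0.253 and 0.277 RPKM. *Cdh5* was thus low in every library, while the junction gene *Esam* stood at 11.7 ± 1.49 RPKM. The mesenchymal gene above 1 RPKM was *Pdgfrb*, at 1.03 RPKM, and the collagen genes *Col1a1* and *Col3a1* reached at most 0.0858 and 0.0920 RPKM. Of the stem cell list, *Cd34* and *Meis1* were above 10 RPKM, and *Procr*, used to sort stem cells, was at 0.732 RPKM. *Slamf1*, used in the same way, stood at 1.001, 0.118, 0.263, 0.475 and 0.0559 RPKM, highest in Tie2-Ezh2-WT replicate 4.

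The gene sets that the study used were summarised in the same way. Of the 88 genes of its EMP signature analysed here 87 were above 1 RPKM with a median of 46.6 RPKM, and of its 129 hematopoietic genes 117 with a median of 11.4 RPKM. Of 163 endothelial genes 80 were above 1 RPKM, with a median of 0.777 RPKM, of 160 hemogenic endothelium genes 59, with a median of 0.278 RPKM, and of 41 Wnt pathway genes 18, with a median of 0.556 RPKM. The 3 latter medians lay below the 1.85 RPKM over all genes, and the first 2 above it. *Slc4a1* was the 1 member of the EMP signature listed at 0.

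**Figure D2:**
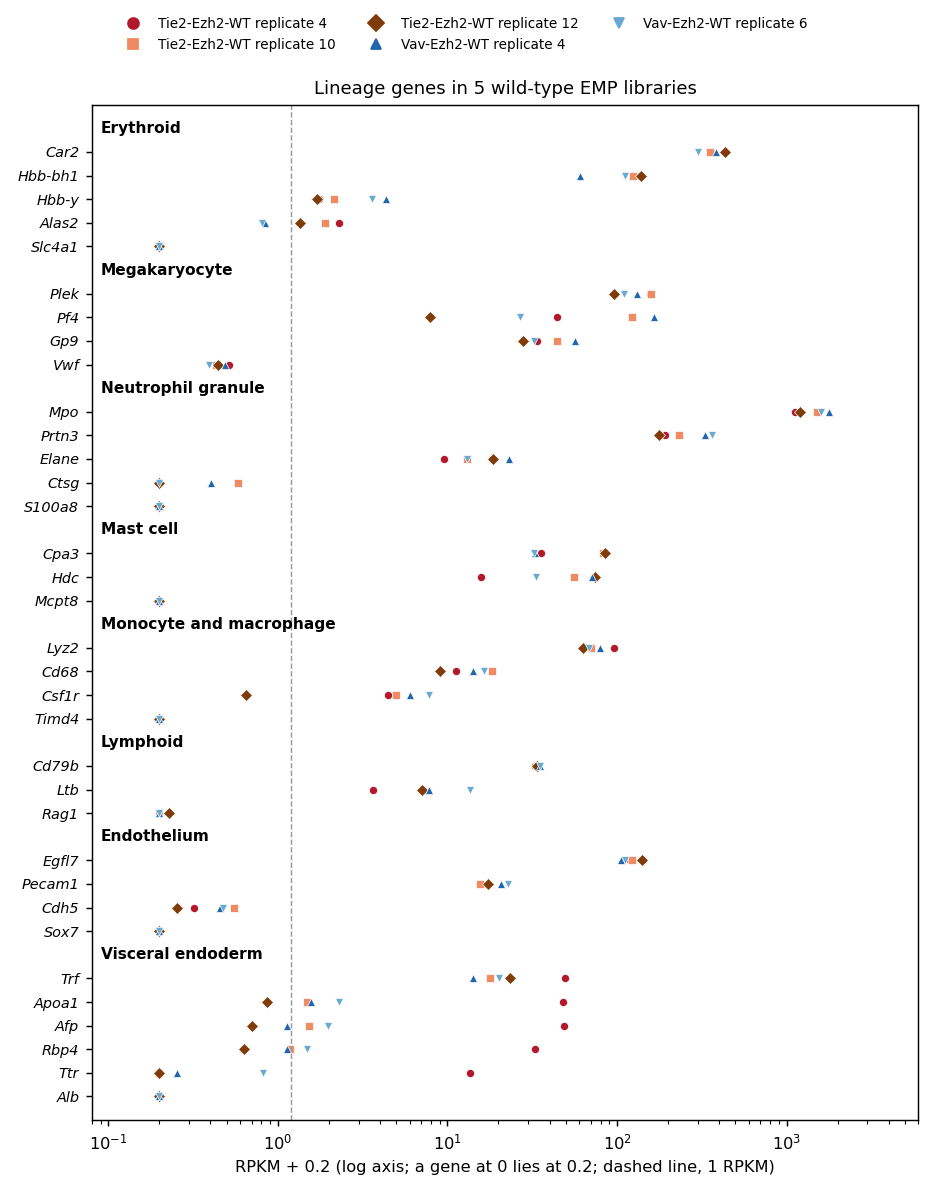
Level of lineage genes (RPKM + 0.2, log axis) in the 5 wild-type libraries, 1 point per library, grouped by lineage. Early genes such as *Car2*, *Plek*, *Mpo* and *Cpa3* are high in every library, late genes such as *Slc4a1*, *S100a8*, *Mcpt8* and *Timd4* are listed at 0, and *Apoa1*, *Afp*, *Rbp4* and *Ttr* are high in Tie2-Ezh2-WT replicate 4 alone.

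Genes without reads made up a sizeable share of the table. Listed at 0 in all 5 libraries were 2125 of 17454 genes, or 12.2%, and a further 3490 had a mean of at most 0.2 RPKM. Families with roles in other tissues held larger shares of such genes. Of 35 olfactory receptor genes 17 were listed at 0, of 41 vomeronasal receptor genes 21, of 64 potassium channel genes 29, of 60 cytochrome P450 genes 28 and of 8 GABA receptor genes 5. None of 39 proteasome, 57 translation initiation and 8 MCM replication genes was listed at 0. Other members of these families were present, such as 6 of the potassium channel and 6 of the cytochrome P450 genes above 1 RPKM. They include *Kcnn4*, which encodes the Gardos channel of red cells, at 27.7 RPKM, and *Cyp20a1* at 26.1 RPKM.

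Promoters from RefSeq on GRCm38.p6 are shown for 4 genes the results turn on, 3 markers and *Mpo*, each from 250 bases before to 50 bases after a transcript start. For *Gata1* that start lies inside the gene's full span, which runs from 7959260 to 7976663. Capitals mark AGATAA or its variant AGATAG, and TGATAA or its variant TGATAG, letters that GATA factors are known to bind. They also mark GAGGAA, letters within the PU.1 motif. All were searched on both strands. The promoter of *Gata1* is chrX:7967861-7968160, minus strand, that of *Gfi1b* chr2:28621933-28622232, minus strand, that of *Itga2b* chr11:102469834-102470133, minus strand, and that of *Mpo* chr11:87793534-87793833, plus strand.
Gata1: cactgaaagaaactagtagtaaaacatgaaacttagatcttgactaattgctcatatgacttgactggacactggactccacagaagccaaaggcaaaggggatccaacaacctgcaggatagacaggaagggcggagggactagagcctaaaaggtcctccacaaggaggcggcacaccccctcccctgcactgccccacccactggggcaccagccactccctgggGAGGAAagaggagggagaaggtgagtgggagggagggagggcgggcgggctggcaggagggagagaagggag
Gfi1b: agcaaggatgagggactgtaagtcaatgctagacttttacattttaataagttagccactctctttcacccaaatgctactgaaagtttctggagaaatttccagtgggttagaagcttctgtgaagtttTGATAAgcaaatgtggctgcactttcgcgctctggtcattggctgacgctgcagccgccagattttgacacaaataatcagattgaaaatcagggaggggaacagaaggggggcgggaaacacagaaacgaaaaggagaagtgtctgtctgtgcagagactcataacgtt
Itga2b: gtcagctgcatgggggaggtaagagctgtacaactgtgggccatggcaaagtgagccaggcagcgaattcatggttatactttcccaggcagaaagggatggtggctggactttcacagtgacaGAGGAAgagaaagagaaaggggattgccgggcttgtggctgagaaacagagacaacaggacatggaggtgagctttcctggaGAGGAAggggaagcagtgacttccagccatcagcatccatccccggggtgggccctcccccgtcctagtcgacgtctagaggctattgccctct
Mpo: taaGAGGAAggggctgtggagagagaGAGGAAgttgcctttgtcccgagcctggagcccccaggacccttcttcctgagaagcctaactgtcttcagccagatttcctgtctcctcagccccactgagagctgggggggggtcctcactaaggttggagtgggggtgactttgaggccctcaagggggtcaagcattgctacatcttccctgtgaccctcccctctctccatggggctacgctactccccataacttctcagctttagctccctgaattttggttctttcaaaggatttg

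The *Gfi1b* promoter held 1 match to the GATA letters and none to the PU.1 letters. That of *Gata1* held 1 match to the PU.1 letters, those of *Itga2b* and *Mpo* held 2 each, and none of these 3 held the GATA letters. Over the 10991 genes with a single promoter in the table, 20.9% held a GATA match and 26.6% a GAGGAA, so such matches are common and only describe these windows. By level, the GATA letters were in 28.5% of promoters of genes listed at 0 and in 16.8% of those above 100 RPKM, without a step back between. TATAAA was in 16.98% of promoters of genes listed at 0, in 10.6%, 6.86% and 6.19% at the levels between, and in 9.32% above 100 RPKM. The median number of CG pairs was higher at higher levels, from 6 for the 1313 genes listed at 0 to 22 for the 880 above 100 RPKM, and the 4 promoters shown held 4 in *Gata1*, 7 in *Gfi1b*, 6 in *Itga2b* and 2 in *Mpo*. The shown genes thus had fewer CG pairs than the median of their level.

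The libraries were close to each other. Over the 6836 genes with a mean above 5 RPKM the median SD of log2(RPKM + 0.2) was 0.19, where counting alone gives 0.04, and 40 genes, or 0.585%, had an SD above 1. The median SD was 0.29 for genes between 5 and 10 RPKM, 0.19 between 10 and 100, 0.15 between 100 and 1000 and 0.17 for the 53 genes above 1000 RPKM. Both Vav-Ezh2-WT libraries were the most alike, with 47 genes over 2-fold apart and a correlation across genes of 0.987, a description since genes are not independent. The pair furthest apart by genes over 2-fold was Tie2-Ezh2-WT replicates 4 and 12, with 254.

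The 10 most even genes were *1190007I07Rik*, *Elp5*, *B3gnt2*, *Galnt1*, *Timm22*, *Gorasp1*, *Dhps*, *Cops5*, *Fam105b* and *Kat8*. *Elp5*, a subunit of the Elongator complex that modifies transfer RNAs, stood at 135, 134, 138, 136 and 137 RPKM. Each of the 10 had an SD of at most 0.03 log2, and for 8 of the 10 this was below the SD that counting alone gives, so their order at this end is not resolved. *Timm22* serves mitochondrial import and *Kat8* histone acetylation. *Cd79b* and *Kit*, with an SD of 0.04 and 0.12 log2, were also below the median of 0.19.

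The 10 most uneven genes fell into few groups. *Eif2s3y* and *Ddx3y*, with an SD of 3.89 and 3.20 log2, are Y-linked, and *Apom*, *Apoa2*, *Afp*, *Apoa1* and *Rbp4*, with an SD from 2.26 log2 for *Rbp4* to 2.51 log2 for *Apom*, are the visceral endoderm or apolipoprotein genes high in Tie2-Ezh2-WT replicate 4. The others were the small nucleolar RNA *Snord19*, which is too short to be measured well, *Rhox5*, an X-linked homeobox gene, at 7.33, 0.949, 10.1, 14.6 and 51.0 RPKM, and *Fbp2*, a muscle fructose bisphosphatase, at 0.817, 10.9, 13.4, 0.571 and 1.51 RPKM. Both Vav-Ezh2-WT libraries were above all 3 Tie2-Ezh2-WT libraries for *Rhox5*, which did not pass the limma test (adjusted p = 0.402), and the groups overlapped for *Fbp2*. Immediate early genes, which respond to handling and growth factors within minutes, had a median SD of 0.67 log2 over the 11 members above 5 RPKM. *Fos* stood at 78.3, 95.3, 198, 64.2 and 47.9 RPKM and *Dusp1* at 56.4, 104, 197, 75.6 and 90.9 RPKM, highest in Tie2-Ezh2-WT replicate 12. Other members of the list, namely *Egr1*, *Junb*, *Zfp36*, *Ier3*, *Jun*, *Nfkbiz*, *Hspa1a* and *Hspa1b*, were lowest in that replicate. *Ier2* was highest in Tie2-Ezh2-WT replicate 10 at 420.1 RPKM.

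**Figure D3:**
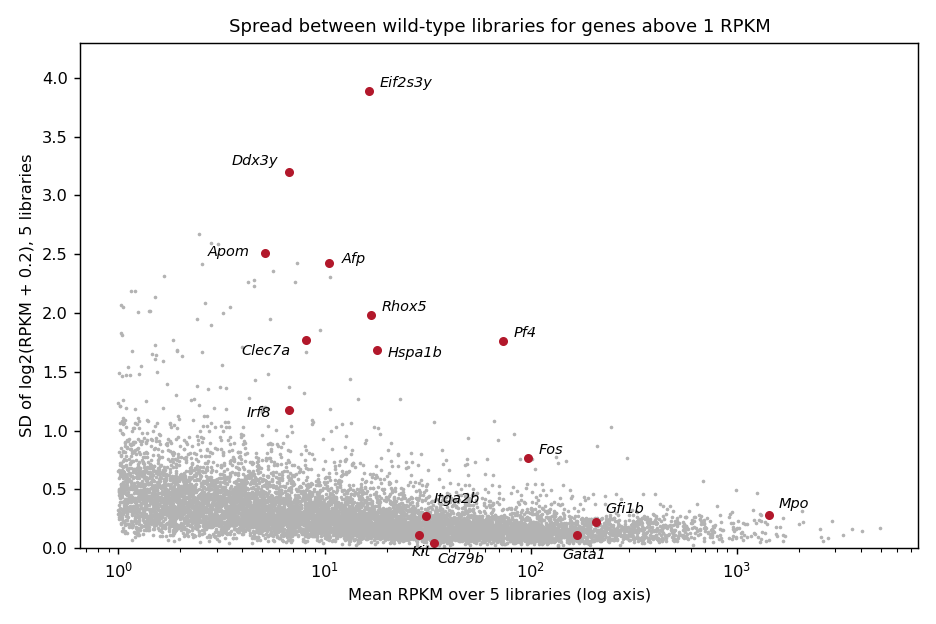
Spread of each gene above 1 RPKM (SD of log2(RPKM + 0.2) over 5 libraries) against its mean level (RPKM, log axis), 1 grey point per gene, with named genes in red. *Eif2s3y* and *Ddx3y* lie at 3.89 and 3.20 log2, and the markers *Kit* and *Gata1* at 0.12 and 0.11 log2.

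The controls of the 2 crosses were compared to see how far they differ. With limma over 13100 genes, 20 genes (0.153%) were called at an adjusted p under 0.05, 1 higher and 19 lower (0.145%) in Vav-Ezh2-WT. The 1168 genes with an unadjusted limma p under 0.05 leaned the other way, with 739 higher and 429 lower in Vav-Ezh2-WT. With each library scaled to the same sum these counts were 667 and 451. Quantile normalization gave 686 and 561, so the size of this lean depended on the scaling. None of the 6 markers was called. Y-linked reads were in both Vav-Ezh2-WT libraries and in 1 of 3 Tie2-Ezh2-WT libraries, so sex and cross cannot be told apart fully. *Nfkbia*, an inhibitor of NF-κB, stood at 32.6, 54.9 and 45.1 RPKM in Tie2-Ezh2-WT and at 127 and 156 RPKM in Vav-Ezh2-WT, without overlap, a change of 1.70 log2 with a standard error of 0.20 (limma, adjusted p = 0.0318). *Mmrn1*, a platelet protein gene, stood at 35.4, 30.5 and 33.4 RPKM against 13.6 and 13.9 RPKM, a change of -1.25 log2 (limma, adjusted p = 0.0318). Both Vav-Ezh2-WT libraries were below all 3 Tie2-Ezh2-WT libraries. *Mmrn1* lies on chromosome 6 of GRCm38 from 60944317 to 60989378.

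Other large falls were *Rn4.5s* (-2.37 log2), *Vmn2r-ps129* (-1.31 log2), *4833417C18Rik* (-1.29 log2), *A330069E16Rik* (-1.29 log2), *BC033916* (-1.23 log2) and *Loxl2* (-1.06 log2). *Vmn2r-ps129*, a vomeronasal receptor pseudogene, stood at 49.1, 47.7 and 51.2 RPKM against 20.6 and 19.0 RPKM. *Rn4.5s* and a pseudogene can share reads with copies elsewhere, so these values are uncertain. *Rn4.5s* lies on chromosome 6 from 47654921 to 47655094, on the same chromosome as the floxed gene *Ezh2*, which ends at 47595270 and was not called. The 20 calls rest on single libraries and on the trend in the variance. Without Tie2-Ezh2-WT replicate 10, Vav-Ezh2-WT replicate 4 or Vav-Ezh2-WT replicate 6 there were 0 calls, with 1135, 790 and 542 genes at an unadjusted p under 0.05, and without Tie2-Ezh2-WT replicates 4 and 12 there were 13 and 99 in turn. Without the variance trend or without a filter on low values there were also 0, with 1048 and 1248 genes at an unadjusted p under 0.05.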

How the data were processed

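RNA from sorted EMPs was amplified with the SMARTer Ultra Low kit and 16 PCR cycles, made into Nextera XT libraries and sequenced as 75 bp single-end reads. The authors aligned reads to GRCm38/mm10 with TopHat 2.0.13, keeping 1 alignment per read, counted them per RefSeq gene with featureCounts and deposited RPKM values of 17454 genes. Neither step is stated to use strand, so overlapping antisense genes cannot be told apart.

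The 5 wild-type columns were taken from their labels. Reads per library were recovered from the steps between RPKM values, within 0.0001 of a whole read, and used for depth, thinning and counting error only. PCR reads are not independent molecules. No library pair agreed within sampling noise (chi-square per gene from 13.9 to 61.5). The 2 control groups were compared with limma 3.58.1 in R 4.3.3, using lmFit and a trended eBayes. It was run on log2(RPKM + 0.2) of the 13100 genes that passed 0.2 RPKM in any of the 5 libraries, with Benjamini-Hochberg adjustment. Alternatives were other pseudocounts, filters and scalings, eBayes without trend and leaving out each library. Python 3.11.15 was used for the rest. Fold changes of low genes are understated on this scale. The code was tested on simulated data. RefSeq held 17362 of the genes, and 10991 matched a single RefSeq promoter.

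The text names the markers, the 20 most abundant genes, the top 5 and the members at 0 of each list, the 10 most and 10 least even genes above 5 RPKM, and the 8 largest called changes in each direction. Other list members are named with their values. Some genes that this rule takes are not reported. *Rmrp*, *Pmaip1*, *Nanog*, *Gm5506* and the choice of genes tested for 1 library lying apart fall outside this rule and were chosen after their values were seen. Members and lists were chosen with earlier results of these data known.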

Additional observations from a re-analysis of the deposited data

Results flagged for a closer look

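Among 160 values tested over the 5 libraries (genes and list sums on the log2 scale, and library totals), 16 had 1 library far from the rest, meaning that its gap to the nearest library exceeded 0.71 of the whole range. Chance marks about 1 in 20 such groups where they were not picked by their values. The genes here were, so that share does not apply to them. The gap as a share of the range is given for each.

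Tie2-Ezh2-WT replicate 4 lay above the others for *Afp* (0.756), *Apoa1* (0.759), *Rbp4* (0.785) and the summed visceral endoderm list (0.881). Tie2-Ezh2-WT replicate 12 lay below the others for *Irf8* (0.848), *Csf1r* (0.777), *Hspa1b* (0.744), *Pmaip1* (0.734), *Clec7a* (0.729) and the number of genes above 1 RPKM (0.769). *Clec7a*, which encodes the fungal receptor dectin-1, stood at 12.03, 14.1, 0.492, 6.11 and 8.01 RPKM, and *Pmaip1*, a p53 target that promotes cell death, at 20.3, 22.4, 3.97, 33.1 and 36.3 RPKM.

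Vav-Ezh2-WT replicate 6 lay above the others for *Cd34* (0.841) and for the stem cell list (0.771), which *Cd34* dominates. Vav-Ezh2-WT replicate 4 lay below them for *Hbb-bh1* (0.742) and the globin list (0.763). Tie2-Ezh2-WT replicate 10 was highest for *Ier2* (0.865) and lowest for the summed PRC2 list (0.807), with 663 RPKM against 714 to 726 RPKM.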

How the results depend on the processing

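The number of genes called between the 2 control groups depended on the settings. It was 20, and between 15 and 29 with other pseudocounts, a filter at 1 RPKM, quantile normalization or each library scaled to the same sum, but 0 with no filter on low values and 0 with eBayes without trend. Leaving out a library in turn gave 0 to 99 calls, and leaving out Tie2-Ezh2-WT replicate 4 gave 13, of which 9 were among the 20. The fits without a Vav-Ezh2-WT library assume that the lone library varies like the other group. No called gene named here changed direction under any alternative. The cause of these differences was not tested. No paired analysis was possible because the control groups share only replicate number 4.

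The share of the 100 most abundant genes was 16.3% of reads in place of 22.6% of summed RPKM, since long genes take more reads per RPKM. The counts above 1 and 0.2 RPKM and the median SD stayed within 1.5 times under every alternative, including the median SD without Tie2-Ezh2-WT replicates 4 and 12 together, 0.15, an alternative chosen after seeing the data, as were the list sums without each library and the scalings of the cell cycle counts. Of 530 genes followed under these alternatives, which include genes not named here, 40 had a mean that moved by over 1.5 times without some library.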

Other observations

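Several genes with known roles elsewhere had clear levels and were chosen after their values were seen. *Cyp2e1*, a liver enzyme that oxidises ethanol, stood at 50.2, 66.5, 55.4, 31.5 and 36.2 RPKM with at least 813 reads per library, and lay on chromosome 7 of GRCm38 from 140763819 to 140774990. *Fgf3*, a growth factor of the embryo, stood at 6.28, 4.56, 6.84, 10.2 and 10.3 RPKM and was the most abundant of 17 Fgf genes, 7 of which were listed at 0. For both genes the Vav-Ezh2-WT and Tie2-Ezh2-WT libraries did not overlap, *Cyp2e1* lower and *Fgf3* higher in Vav-Ezh2-WT, as held for 9.93% and 16.0% of all 13100 genes tested. Neither passed the limma test (adjusted p = 0.141 for *Cyp2e1* and 0.36 for *Fgf3*).

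*Nanog*, the pluripotency factor, was listed at 59.6, 54.2 and 52.4 RPKM in Tie2-Ezh2-WT and at 26.4 and 29.7 RPKM in Vav-Ezh2-WT, and was among the 20 called genes (limma, change of -0.98 log2, adjusted p = 0.0402). It has pseudogenes in the mouse genome, and reads that matched several places were kept at 1, so the value is uncertain. The glycolytic gene *Eno1* was listed at 20.9 RPKM and its intronless copy *Gm5506* at 266 RPKM, so the reads of this pair may have been split between them.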
